A study of Mus musculus with 12 samples.

Results

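The mRNA levels of 4 C/EBP transcription factors (Cebpa, Cebpb, Cebpd and Cebpg), of Stat3 and of Socs3 were followed through 3 treatments of mouse kidney tubuloids. The 6 genes were taken by symbol from the 20819 genes of the deposited table, and all 6 were among the 14558 genes that passed the filter on low values. Tubuloids are clusters of tubular epithelial cells, grown here in Matrigel from the dissected kidney cortex of 4 wildtype mice. They received vehicle, myoglobin, or myoglobin together with 100 nM dexamethasone, and RNA was taken after 12 h. Each treatment has 4 libraries, 12 in all. All groups share the wildtype genotype and the culture, and a group given dexamethasone without myoglobin is not analysed here. Myoglobin is the haem protein of muscle, which the series' design names as the cause of tubular injury. Dexamethasone is a synthetic glucocorticoid. The comparisons ask how the injuring agent changed expression and what the glucocorticoid added to it. The labels number the libraries 1 to 4 in each group without saying that a number is a mouse, so p-values measure only the spread between these libraries.

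C/EBP proteins are bZIP factors: a basic region contacts DNA and a leucine zipper joins them in pairs, also with one another and, for Cebpg, with the stress factor ATF4. Cebpb and Cebpd are known as drivers of the acute-phase response, Cebpa is best known for differentiation of liver, fat and myeloid cells, and Cebpg lacks the activating part of its relatives. STAT3 is the factor that cytokines of the interleukin-6 family activate through the shared receptor chain gp130 (Il6st) and Janus kinases. SOCS3, a textbook STAT3 target, binds that receptor and the kinases and damps the signal, so its mRNA is often read beside that of Stat3. STAT3 activity depends on phosphorylation, which mRNA levels do not measure.

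Of the 4 C/EBP genes, Cebpa, Cebpb and Cebpg are shown first by the stretch of coding sequence that these 3 share most, 60 bases that encode part of the basic region. Capitals mark the 36 positions at which the 3 genes have the same base. Coordinates are of mm10 with the GENCODE M21 annotation, every stretch lies in a coding exon, and each is written 5′ to 3′ on the gene's strand. Cebpa is at chr7:35120262-35120321 (+), Cebpb at chr2:167689682-167689741 (+) and Cebpg at chr7:35050597-35050656 (-).
Cebpa: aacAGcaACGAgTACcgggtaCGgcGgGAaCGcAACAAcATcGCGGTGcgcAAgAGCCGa
Cebpb: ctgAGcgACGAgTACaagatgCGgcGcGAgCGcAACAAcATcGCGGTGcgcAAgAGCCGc
Cebpg: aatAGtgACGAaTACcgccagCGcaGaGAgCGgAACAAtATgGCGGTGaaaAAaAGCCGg
Within this stretch Cebpa and Cebpb shared 81.7% of bases. Cebpg stood further off, with 66.7% shared with Cebpa and 65.0% with Cebpb. The longest run of identical bases between any pair of full transcripts of the 4 C/EBP genes was 29, between Cebpa and Cebpb, and 27 between Cebpb and Cebpd. The remaining pairs shared runs of 11 to 14 bases. The read length is not given in the sources used here.

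The gene bodies differ in length and in their neighbours. Cebpa spans chr7:35119293-35121928 (+), and Cebpg lies 62719 bases away at chr7:35046422-35056573 (-). Cebpb spans chr2:167688915-167690418 (+), Cebpd chr16:15887286-15891031 (+), Stat3 chr11:100885098-100939540 (-) and Socs3 chr11:117966079-117970047 (-). Exonic length was 2636 bases for Cebpa, 1504 for Cebpb, 3746 for Cebpd, 5621 for Cebpg, 9527 for Stat3 and 2891 for Socs3. Exons of other genes on the opposite strand overlap those of Cebpd (Spidr, 562 bases), Cebpb (Tmem189, 312 bases) and Stat3 (Stat5a, 72 bases). Smaller overlaps of this kind are those of Cebpa (Gm45091, 51 bases) and Cebpg (Gm45095, 4 bases). On the same strand Cebpg shares 73 exonic bases with Gm44836, whose mean value was 4 with vehicle, 3.25 with myoglobin and 2.5 with both agents. The libraries were made with a stranded kit, but whether counting used the strand is not given in the sources used here. If it did not, reads from the overlaps on opposite strands cannot be told apart. Strand does not separate reads from the bases shared with Gm44836.

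Socs3 is shown with the stretch upstream of its RefSeq start site because it was the member that fell. A STAT palindrome of the form TTCNNNGAA was found there at -154 to -146, counted from the start site, and is in capitals. The stretch is chr11:117969452-117969616 (-), GRCm38.p6, positions -250 to -86, and lies in an intron of a longer Socs3 transcript of GENCODE M21. It is written 5′ to 3′ on the gene's strand.
Socs3: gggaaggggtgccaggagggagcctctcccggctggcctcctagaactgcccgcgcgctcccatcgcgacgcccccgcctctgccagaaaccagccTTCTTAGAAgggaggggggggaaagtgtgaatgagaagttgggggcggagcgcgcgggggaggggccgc
Promoter windows of 250 bases were found in RefSeq for 5 of the 6 members, Cebpd being the exception. Of 32851 mouse windows of the same length, 7.02% hold TTCNNNGAA on either strand. In the Stat3 window AGAACA stands at -147 to -142, the reverse complement of TGTTCT, an arm of the glucocorticoid receptor's palindrome that 16.08% of windows hold. The other motifs searched on both strands, TTGCNNAA (C/EBP, 9.56% of windows), TGACGTCA (cyclic AMP response element, 1.55%), TTGCATCA (C/EBP with ATF, 0.79%) and GGGNNTTCC (NF-kB, 4.98%), had no match in the 5 windows. The matches do not overlap one another. A match is a string of letters and was not measured as a binding site.

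Libraries were alike in depth except for replicate 4 with both agents. An estimated 4.85 to 5.92 M reads in genes were recovered for 11 libraries, and 3.25 M for replicate 4 of myoglobin with dexamethasone. That library had 2179 genes listed at 0, against 1051 to 1544 in the others. Values are reads divided by the library's size factor, called normalised read counts below. Markers of tubular epithelium were plentiful, with summed values of 9463 to 9876 in vehicle, 8934 to 9378 in myoglobin and 9385 to 12562 with both agents. Of 8 such genes, 7 were not called with myoglobin, of which Cdh16 and Pax2 were lower without replicate 4 of the group with both agents (adjusted p = 0.024 and 0.0342). Defining genes of mature proximal tubule, Cubn, Slc34a1 and Slc5a2, were below the filter. Of 3 tested proximal genes Lrp2 rose with myoglobin, and none was called lower by limma. At an unadjusted p below 0.05, 1 of them was lower, and the median change of the 3 was -0.22. The glucocorticoid check genes responded: 6 of 8 rose with dexamethasone over myoglobin, with the smallest p-values for Fkbp5 (1.19 ± 0.073 log2, adjusted p = 1.53e-07), Zbtb16 and Per1, and Nr3c1, the receptor, fell. Of the injury check genes, the haem-degrading enzyme Hmox1 rose with myoglobin by 2.01 ± 0.062 log2, and the injury marker Havcr1 fell.

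Myoglobin raised Cebpd and Cebpg and lowered Socs3, while the Stat3 groups overlapped. Tests used limma on log2 of the value plus 1 across all tested genes, with Benjamini-Hochberg adjusted p, and a gene was called below 0.05. Changes are log2 fold changes ± SE. Against vehicle, myoglobin called 3 of the 6 members. Over all tested genes it called 18.3%, of which 8.71% of tested genes were higher and 9.62% lower. The members were chosen with results of these data known, so nothing is read from that share. In these bulk libraries, fewer cells of a type and less RNA per cell cannot be told apart.

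**Figure D1:**
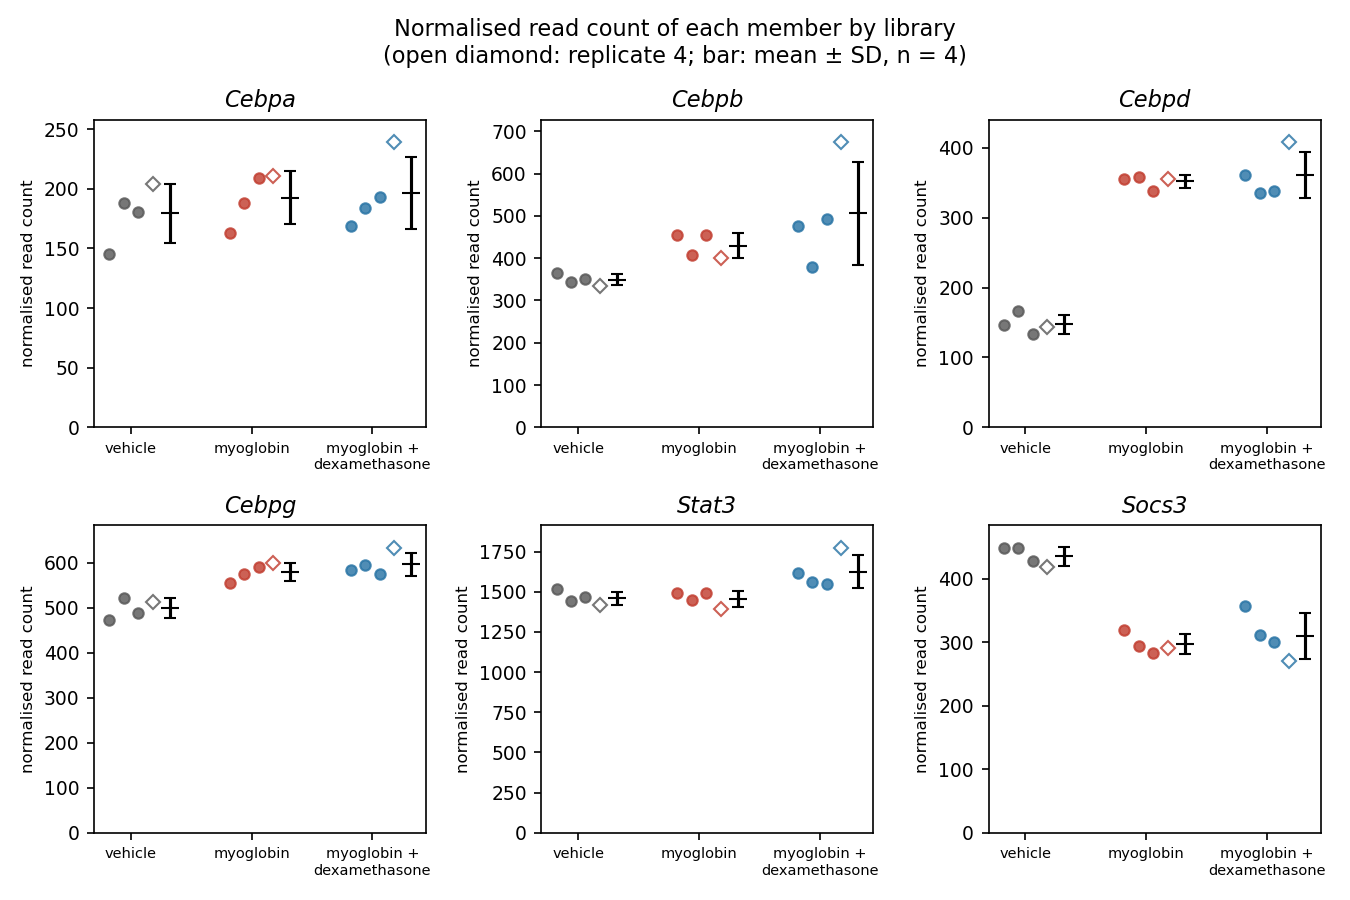
Normalised read count of each member in each library (y axis, from 0) by treatment (x axis). Circles are replicates 1 to 3, open diamonds replicate 4, and black bars the mean ± SD of 4 libraries. The Cebpd values of both myoglobin groups (336 to 408) lie above all vehicle values (133 to 166), and the Socs3 values (271 to 357) lie below vehicle (419 to 449).

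Cebpd, the acute-phase factor, changed most among the members. Its normalised counts in replicates 1 to 4 were 146, 166, 133 and 144 with vehicle. With myoglobin they were 356, 359, 338 and 356. With myoglobin and dexamethasone they were 362, 336, 339 and 408. The lowest library with myoglobin, at 336, lay above the highest vehicle library, at 166, and both myoglobin groups overlapped. Cebpd rose by 1.26 ± 0.072 with myoglobin, 2.39-fold (95% interval 2.15 to 2.66), with adjusted p = 7.27e-09. It rose 2.44-fold with both agents against vehicle (1.29 ± 0.072, adjusted p = 5.16e-09). Between the myoglobin groups it differed by 0.03 ± 0.072 (95% interval -0.12 to 0.19, adjusted p = 0.83).

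Spidr, whose exons cover 562 of the 3746 exonic bases of Cebpd on the opposite strand, also rose with myoglobin, by 0.27 (adjusted p = 0.00946). Its mean was 266.5 ± 14.6 with vehicle, 321.75 ± 15.4 with myoglobin and 271.75 ± 26.2 with both (SD, n = 4). With dexamethasone Spidr fell by 0.25 (adjusted p = 0.0366) while the Cebpd level was 352 and then 361. A share of Cebpd reads in Spidr, or the reverse, was not tested.

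Cebpg, the partner of ATF4, rose less. It had 473, 522, 488 and 513 counts with vehicle, 554, 576, 590 and 600 with myoglobin, and 583, 595, 576 and 633 with both agents. The lowest myoglobin value, 554, exceeded the highest vehicle value, 522. The rise was 0.22 ± 0.045 with myoglobin (16.2%, adjusted p = 0.0029) and 0.26 ± 0.045 with both (19.6%, adjusted p = 0.000578). Dexamethasone added 0.04 ± 0.045 to the myoglobin level (adjusted p = 0.634). Leaving out the libraries numbered 3 in all groups ended the myoglobin call (0.20 ± 0.057, adjusted p = 0.0516).

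Cebpb, the other acute-phase factor, had 366, 343, 352 and 335 counts with vehicle and 456, 407, 454 and 400 with myoglobin. With both agents it had 477, 380, 493 and 674. The vehicle group lay below the other groups without overlap, but the libraries with both agents spread from 380 to 674. Its difference with myoglobin, 0.30 ± 0.12 (95% interval 0.05 to 0.55), did not pass (adjusted p = 0.0995). With both agents against vehicle Cebpb rose by 0.50 ± 0.12, 1.42-fold (adjusted p = 0.00487). Between the myoglobin groups it differed by 0.21 ± 0.12 (adjusted p = 0.312).

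The Cebpb results changed with the library at 674. All groups share an estimate of the spread, and without replicate 4 of the group with both agents the same myoglobin difference had an SE of 0.072 and passed (adjusted p = 0.00675). It also passed without replicate 2 of that group (adjusted p = 0.035), without the libraries numbered 4 (adjusted p = 0.0135), with only the vehicle and myoglobin groups in the fit (adjusted p = 0.00133) and with libraries weighted by their quality (adjusted p = 0.00867). Without replicate 4 the difference between the myoglobin groups was 0.06 ± 0.078 (adjusted p = 0.70), and the rise over vehicle was 0.36 ± 0.078 (adjusted p = 0.00302). Tmem189, which overlaps 20.7% of the exonic bases of Cebpb, had means of 394 ± 8.58, 401 ± 20.2 and 433 ± 25.6 and was not called.

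Cebpa, the differentiation factor, was not called in any comparison. It had 145, 188, 181 and 204 counts with vehicle, 163, 188, 209 and 211 with myoglobin, and 169, 184, 193 and 239 with both. The 3 groups overlapped throughout. The differences were 0.11 ± 0.12 with myoglobin (adjusted p = 0.608), 0.02 ± 0.12 for dexamethasone over myoglobin (adjusted p = 0.937) and 0.13 ± 0.12 with both against vehicle (adjusted p = 0.451). The myoglobin interval of -0.15 to 0.36 leaves room for a rise of the size seen in Cebpg.

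Stat3, the signal transducer, had 1514, 1442, 1465 and 1419 counts with vehicle and 1493, 1447, 1494 and 1391 with myoglobin. These groups overlapped, and the difference was -0.00 ± 0.047 (95% interval -0.10 to 0.10, adjusted p = 0.966). With both agents it had 1619, 1561, 1546 and 1773 counts, all above the other 8 libraries. Over vehicle Stat3 rose by 0.15 ± 0.047, 1.11-fold (adjusted p = 0.0236). The same libraries against myoglobin gave 0.16 ± 0.047, which did not pass (adjusted p = 0.0571).

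The Stat3 calls lie close to the threshold. Against vehicle the rise was lost with quantile normalization, where it was 0.05 ± 0.029 (adjusted p = 0.222), with only the compared groups in the fit (adjusted p = 0.0563), and on leaving out vehicle replicate 2, 3 or 4 or all libraries numbered 1, 2 or 3 (adjusted p from 0.0514 to 0.0922). Against myoglobin the difference passed when values were scaled to library totals (adjusted p = 0.0401), with library weights (0.12 ± 0.033, adjusted p = 0.0258), without replicate 3 (adjusted p = 0.0472) or replicate 4 (0.11 ± 0.032, adjusted p = 0.0419) of the group with both agents. Stat5a, the neighbour that overlaps 0.756% of the exonic bases of Stat3, rose by 0.27 ± 0.06 over myoglobin (adjusted p = 0.0143).

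Socs3, the feedback inhibitor, moved the other way. It had 449, 448, 428 and 419 counts with vehicle, 320, 294, 284 and 291 with myoglobin, and 357, 312, 301 and 271 with both agents. All 8 libraries with myoglobin lay below all 4 vehicle libraries, and the myoglobin groups overlapped. Socs3 fell to 0.682 of vehicle with myoglobin (-0.55 ± 0.069, adjusted p = 3.55e-05) and to 0.709 with both (-0.50 ± 0.069, adjusted p = 7.92e-05). The difference between the myoglobin groups was 0.06 ± 0.069 (95% interval -0.09 to 0.20, adjusted p = 0.674).

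Dexamethasone over myoglobin thus called none of the 6 members by limma at an adjusted p below 0.05, and Stat3 alone had an unadjusted p below that value (0.00433). The background was 6.98% of tested genes called, 3.08% higher and 3.90% lower. With both agents against vehicle, 5 of the 6 members were called, 4 higher and Socs3 lower, where 28.6% of tested genes were called, 13.9% higher and 14.6% lower. The comparisons share their libraries and are not independent of each other.

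**Figure D2:**
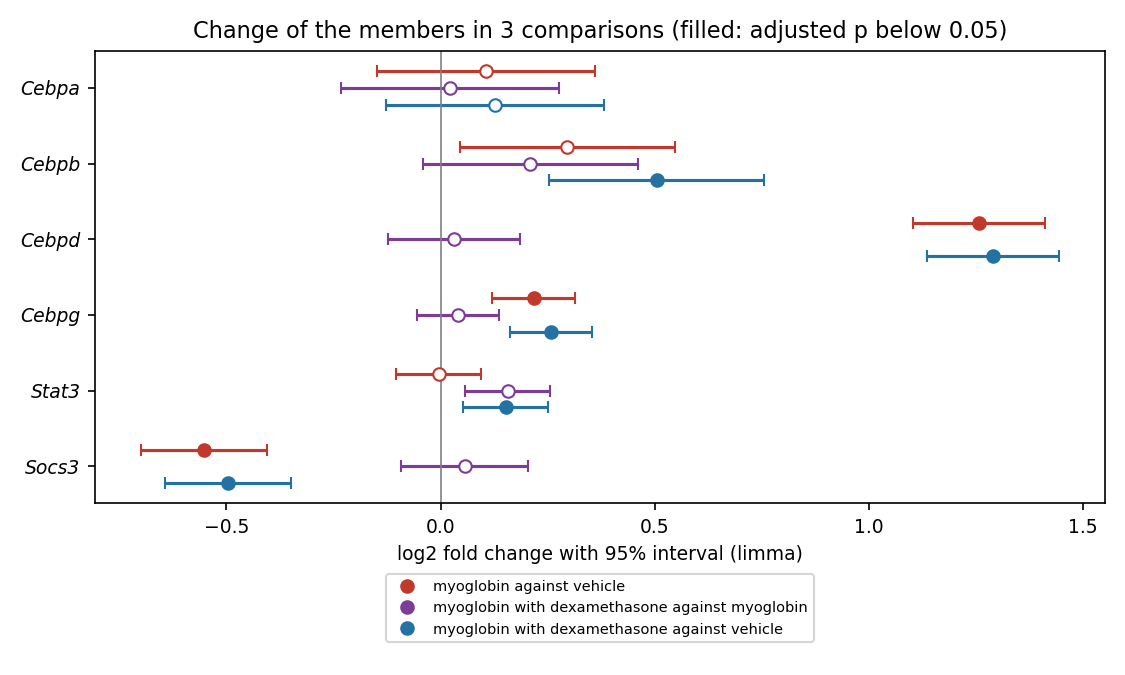
Log2 fold change of each member (x axis) with its 95% interval in the 3 comparisons, filled where the adjusted p is below 0.05. The Cebpd points of both comparisons with vehicle lie near 1.26 and 1.29, those of Socs3 near -0.55 and -0.50, and the points for dexamethasone over myoglobin lie between 0.02 and 0.21.

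Replicate 4 with both agents was the shallowest library and held the highest value of that group for 5 of the members. It lay above the mean of its 3 companions by 0.39 log2 units for Cebpa, 0.59 for Cebpb, 0.24 for Cebpd, 0.11 for Cebpg and 0.17 for Stat3, and below it by -0.25 for Socs3. Among genes of like read density, within 1.2-fold in estimated reads per exonic base, the median deviation was -0.01 for those like Cebpa, 0.32 like Cebpb, -0.00 like Cebpd, 0.04 like Cebpg, 0.16 like Stat3 and 0.09 like Socs3. The values of Cebpa, Cebpb and Cebpd lay above the upper quartiles of their companions in density (0.11, 0.39 and 0.12). Those of Cebpg (quartiles -0.05 and 0.15) and Stat3 (0.08 and 0.25) lay between the quartiles. That of Socs3 lay below the lower quartile (0.01). Cebpb was the most densely covered member, at 0.276 reads per exonic base, and Cebpa the least, at 0.0708. The part of this pattern in the members' changes was not tested.

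**Figure D3:**
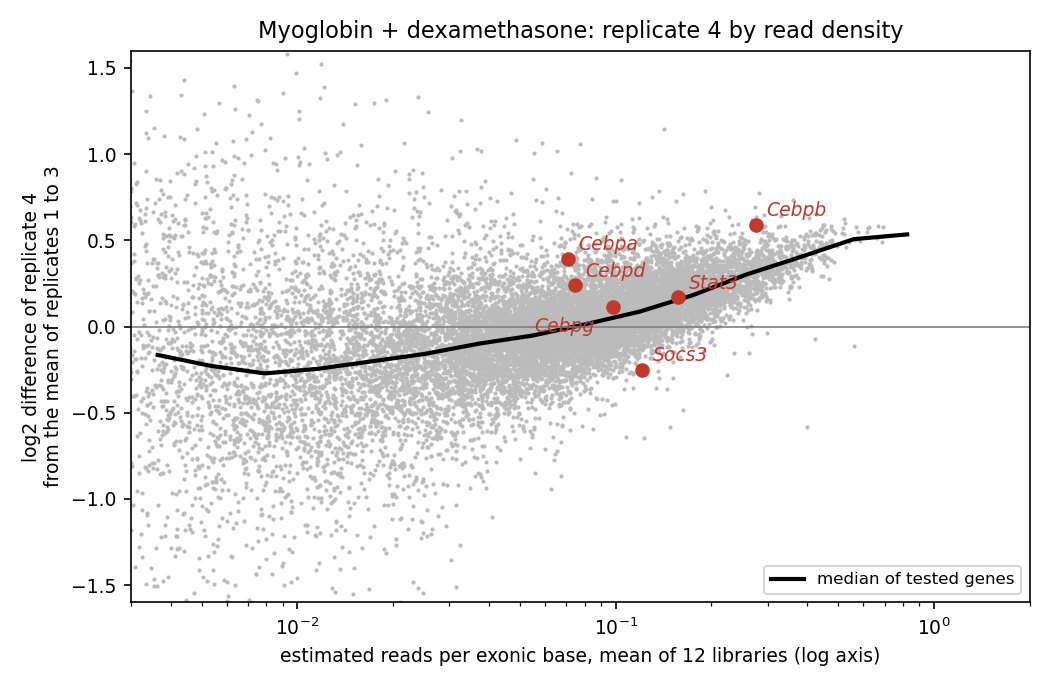
Difference of replicate 4 from the mean of replicates 1 to 3 with both agents (y axis, log2) against estimated reads per exonic base (x axis, log scale). Grey points are tested genes, the line their median in bins of density, and red points the members; some grey points lie outside the axes. Cebpa, Cebpb and Cebpd lie above the line, Stat3 lies on it and Socs3 lies below it.

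Levels of different genes can be set side by side only per length. Per kilobase of exon, the vehicle order was Cebpb (232 ± 8.84 normalised counts per kb, SD, n = 4), Stat3 (153 ± 4.26), Socs3 (151 ± 5.15), Cebpg (88.8 ± 4.01), Cebpa (68.1 ± 9.46) and Cebpd (39.3 ± 3.67). Stat3 and Socs3 overlapped, and all other neighbours were apart in every library. With myoglobin Cebpb stood at 285 ± 19.9 and Stat3 at 153 ± 5.11. Cebpg and Socs3 then shared a level of 103 per kb, with SDs of 3.55 and 5.44. Cebpd at 94.0 ± 2.56 lay above Cebpa at 73.1 ± 8.50. With both agents the order was Cebpb (336 ± 81.5), Stat3 (171 ± 10.9), Socs3 (107 ± 12.3), Cebpg (106 ± 4.52), Cebpd (96.4 ± 8.88) and Cebpa (74.45 ± 11.4). In that group the ranges of Socs3, Cebpg and Cebpd overlapped, as did those of Cebpd and Cebpa.

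Cebpb made up the largest part of the summed level per kb of the 4 C/EBP genes in all groups, 54.2% ± 2.75, 51.3% ± 2.52 and 54.4% ± 4.20 (SD, n = 4) in the order vehicle, myoglobin and both. The share of Cebpd went from 9.17% ± 0.75 to 16.9% ± 0.91 and 15.9% ± 1.35. Its highest vehicle share, 10.2%, lay below the lowest share in the other groups, 14.3%. Cebpa had 15.9%, 13.2% and 12.2%, and Cebpg 20.7%, 18.6% and 17.6%. Shares of a whole fall when another part of it rises, so these values do not show a fall of Cebpa or Cebpg.

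Ratios within a library do not depend on its scaling, apart from the 1 added to each value. A shift tied to read density, as in replicate 4 with both agents, stays in them. There the median deviation of genes of like density was 0.32 for Cebpb, -0.01 for Cebpa and -0.00 for Cebpd. Its part in the ratios was not tested. In all, 12 comparisons of ratios were tested with an exact two-sided permutation test over libraries (4 against 4). The smallest possible p is 0.0286, and p was adjusted over the 12. On the log2 scale the ratio of Cebpd to Cebpa averaged -0.28 ± 0.24 with vehicle, 0.87 ± 0.19 with myoglobin and 0.88 ± 0.15 with both. The ratio of Cebpd to Cebpb averaged -1.24 ± 0.15, -0.28 ± 0.13 and -0.46 ± 0.23. The ratio of Socs3 to Stat3 averaged -1.74 ± 0.04, -2.29 ± 0.07 and -2.39 ± 0.22. For each of these 3 ratios both myoglobin groups were separate from vehicle in every library. Each gave the smallest p the design allows, 0.0286 by the exact permutation test, and 0.0571 after adjustment, so none passed. The adjusted value depends on how many of the 12 tests reach that smallest p. A larger difference could not have lowered it, so nothing is read from the failure to pass. The ratio of Cebpb to Cebpa averaged 0.97 ± 0.26, 1.16 ± 0.23 and 1.34 ± 0.21, with an exact p of 0.0571 at the lowest (adjusted 0.098). Between the myoglobin groups no ratio differed beyond the spread (exact permutation p from 0.257 to 0.943).

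The list of other C/EBP and related bZIP genes divided in direction. Of its 11 tested genes, which include Cebpz, 3 rose and 4 fell with myoglobin, where 8.71% and 9.62% of all tested genes did. The median change of the list was -0.04. Atf5 rose by 0.68 ± 0.058 (adjusted p = 6.05e-07), Atf4, the partner of Cebpg, by 0.26 ± 0.081 (adjusted p = 0.0392), and Batf2 by 0.88 ± 0.26 (adjusted p = 0.0288). Atf3, a stress-response repressor, fell by 0.79 on the log2 scale (adjusted p = 0.000163). The circadian factors Dbp (-0.61 ± 0.099) and Hlf (-0.47 ± 0.11) also fell. Ddit3, which encodes CHOP, a C/EBP relative that blocks its partners, had 73.75 ± 7.93 counts with vehicle and 84.5 ± 13.4 with myoglobin (adjusted p = 0.406). Cebpz, which carries the name but is no bZIP factor, had 536 ± 35.9 and 582.75 ± 8.18 (adjusted p = 0.102, and 0.0482 without replicate 4 of the group with both agents). Cebpe is not analysed here. Dexamethasone over myoglobin lowered Dbp, by -0.35 ± 0.099 (adjusted p = 0.0436), and without replicate 4 that call ended (adjusted p = 0.0548).

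Regulators of C/EBP proteins were called in 5 of 19 cases with myoglobin, 3 higher and 2 lower. Among all tested genes 18.3% were called, 8.71% higher and 9.62% lower. Without replicate 4 of the group with both agents, 5 regulators were higher and 3 lower. Trib3, a pseudokinase of the Tribbles family, rose from 62.5 ± 10.4 to 138.5 ± 12.1 counts (1.15 ± 0.12, adjusted p = 4.36e-06). Rps6ka1 and Rps6ka3, kinases of the RSK family that phosphorylate Cebpb, rose by 0.26 ± 0.043 and 0.25 ± 0.039. Trib1, which directs Cebpa protein to degradation, fell by 0.16 (adjusted p = 0.0269), and Fbxw7, a ubiquitin ligase subunit, by 0.15. With dexamethasone over myoglobin Trib1 rose by 0.20 ± 0.048 (adjusted p = 0.0186), the 1 call of this list. With both agents against vehicle 3 rose and 2 fell, where 13.9% and 14.6% of all tested genes did. Trib2 was among those that fell (-0.31 ± 0.061).

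Upstream of Stat3, ligands and receptors of the interleukin-6 family were mixed. Of 5 ligands tested, Lif rose with myoglobin, from 559 ± 72.3 to 733.25 ± 78.2 counts (0.39 ± 0.093, adjusted p = 0.0071). Clcf1 was lower with both agents than with vehicle (-0.34 ± 0.069, adjusted p = 0.00175). Il11 and Ctf1 were not called, and Il6 was below the filter in these cultures. Of 6 receptor chains, Il6ra rose from 74.25 ± 4.99 to 129 ± 9.63 counts (0.79 ± 0.091, adjusted p = 1.48e-05), while Osmr, the oncostatin M receptor, fell by 0.19 (adjusted p = 0.0222). The shared chain Il6st had 2366 ± 148, 2664 ± 82.4 and 2849 ± 228 counts. It was 0.17 higher with myoglobin (adjusted p = 0.0549) and rose with both agents against vehicle (0.27 ± 0.059, adjusted p = 0.00342). Lifr and Cntfr fell in that comparison, by 0.37 and 1.13. Without replicate 4 of the group with both agents, myoglobin over vehicle also called Il6st (adjusted p = 0.00573), Lifr (lower, 0.0118) and the ligand Clcf1 (lower, 0.0333). For dexamethasone over myoglobin limma called none of these genes. At an unadjusted p below 0.05, 2 ligands and 1 receptor chain were lower and 1 receptor chain higher. Without replicate 4 Lif fell there (-0.36 ± 0.091, adjusted p = 0.0224).

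Of 14 other tested ligands and receptors known to act through STAT3, 5 rose with myoglobin, where 8.71% of all tested genes did. Without replicate 4 of the group with both agents 7 of the 14 rose. None was called lower by limma, and 1 had an unadjusted p below 0.05 in that direction. Csf3, the granulocyte colony factor, went from 150.5 ± 22.1 to 425 ± 28.2 counts (adjusted p = 3.08e-08), and was 1.47 ± 0.098 higher with both agents than with vehicle. The interferon receptor chains Ifnar2 (0.64 ± 0.05) and Ifngr2 (0.58 ± 0.067) followed. Ifnar2 fell again with dexamethasone (-0.21 ± 0.05, adjusted p = 0.0186), and Hbegf fell in that comparison without replicate 4 (adjusted p = 0.0419). The receptor of Csf3 is not analysed here.

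Among the 4 Janus kinases, Jak3 fell with myoglobin (-0.17 ± 0.039, adjusted p = 0.00629). Jak1 (-0.11 ± 0.048), Jak2 (-0.14 ± 0.051) and Tyk2 (-0.09 ± 0.048) did not pass, but without replicate 4 of the group with both agents Jak1 and Jak2 did (adjusted p = 0.00631 and 0.0151). Jak2 was the 1 kinase called for dexamethasone over myoglobin, rising from 1211 ± 40.6 to 1391 ± 101 counts (0.20 ± 0.051, adjusted p = 0.0276). Of the 5 other STAT factors tested, none was called with myoglobin by limma or had an unadjusted p below 0.05, and their changes lay between -0.04 (Stat5b) and 0.00 (Stat2). With dexamethasone Stat5a rose from 458.25 ± 31.8 to 551.25 ± 37.8 counts, and Stat2, Stat5b and Stat6 were not called.

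None of the 7 tested relatives of Socs3 was called lower with myoglobin by limma, or had an unadjusted p below 0.05 in that direction. Socs1 rose from 33 ± 3.56 to 47.5 ± 4.65 counts with myoglobin (0.51 ± 0.14, adjusted p = 0.0159) and Socs2 from 420.5 ± 7.72 to 503.5 ± 15.2 (0.26 ± 0.051, adjusted p = 0.00193). Socs4, Socs5, Socs6, Socs7 and Cish lay between -0.07 and 0.09 and were not called. Socs2 rose further with dexamethasone, to 571.75 ± 45.6 counts (0.18 ± 0.051, adjusted p = 0.0457), and Socs5 was lower with both agents than with vehicle (-0.25 ± 0.053). The rise of Socs1 with both agents over vehicle (0.42 ± 0.14, adjusted p = 0.0333) was lost without replicate 4 (adjusted p = 0.0669). Among the other brakes, PIAS proteins and phosphatases, 2 of 11 rose with myoglobin and 1 fell. Of all tested genes 8.71% rose and 9.62% fell. Without replicate 4, 2 of these brakes fell. Ptpn1, the phosphatase PTP1B that acts on Janus kinases, rose by 0.17 ± 0.045 with myoglobin and by a further 0.25 ± 0.045 with dexamethasone (adjusted p = 0.00346). Pias3, named as an inhibitor of STAT3, fell with myoglobin (-0.23 ± 0.047, adjusted p = 0.00244).

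**Figure D4:**
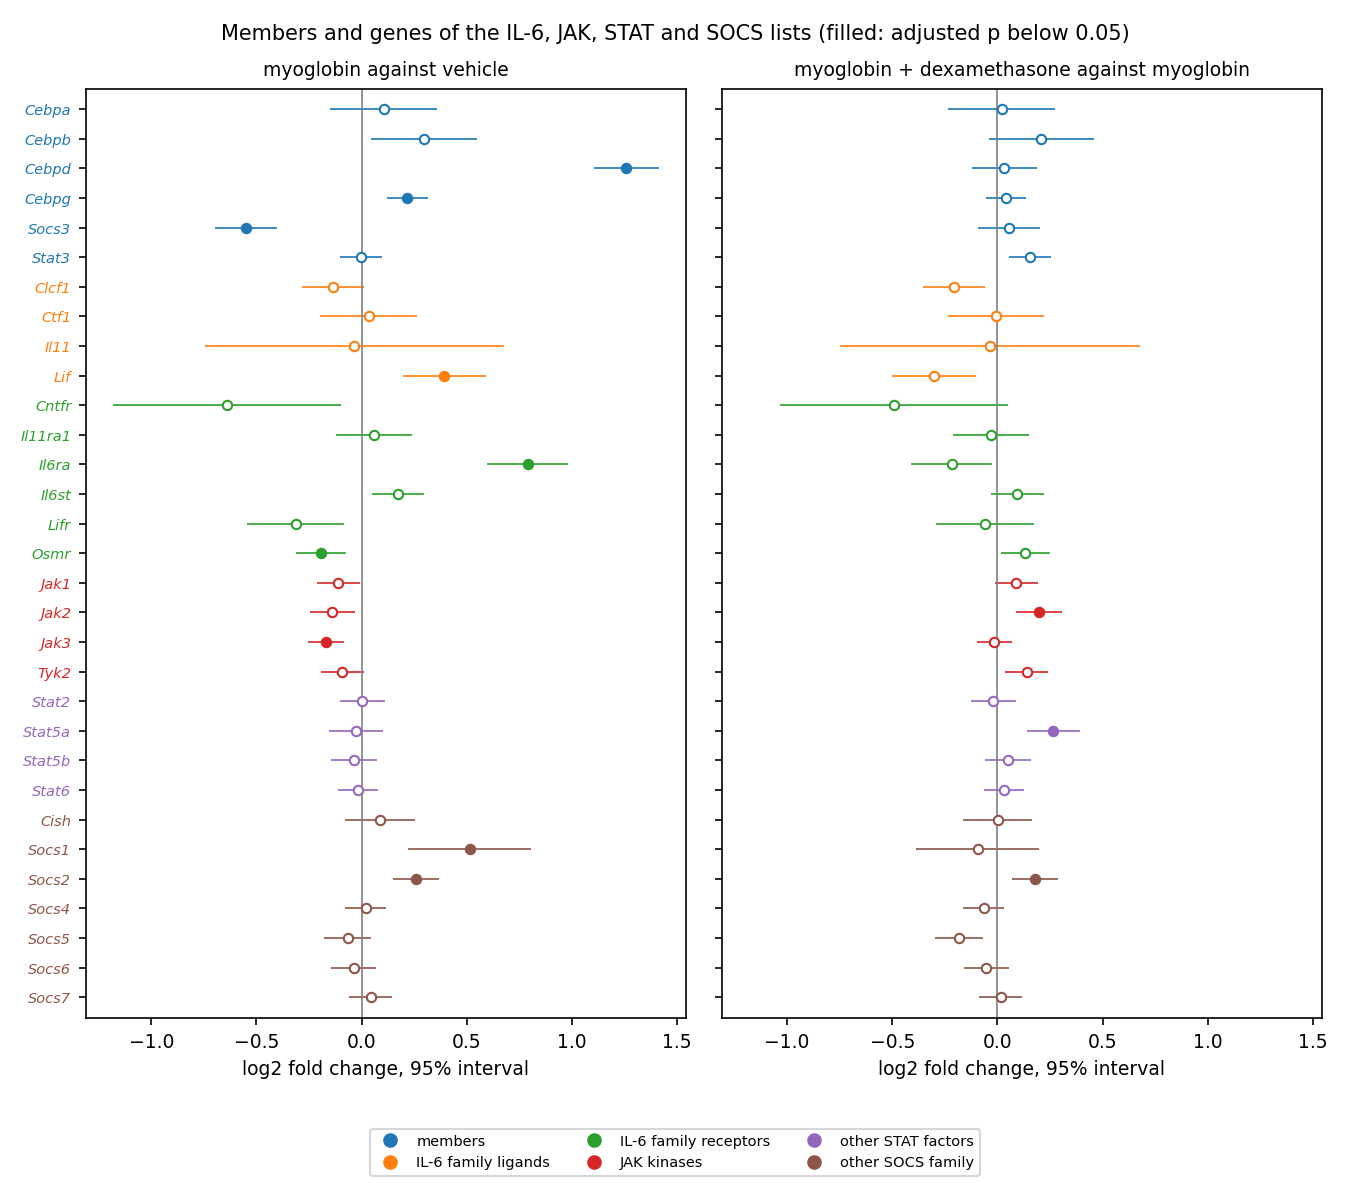
Log2 fold changes with 95% intervals (x axis) of the members and of interleukin-6 family, Janus kinase, STAT and SOCS genes (y axis), for myoglobin over vehicle (left) and dexamethasone over myoglobin (right). Filled points have an adjusted p below 0.05. On the left Socs3 lies at -0.55 and Socs1 and Socs2 at 0.51 and 0.26, and on the right Jak2, Stat5a and Socs2 are filled.

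Genes listed as STAT3 targets moved in both directions. With myoglobin 7 of 26 rose and 2 fell, where 8.71% and 9.62% of all tested genes did. The median change of the list was 0.01, and without replicate 4 Bcl6 fell too (adjusted p = 0.0379). Tnfaip2 (0.80 ± 0.07), the adhesion molecule Icam1 (0.76 ± 0.058) and the kinase Pim1 (0.92 ± 0.062, adjusted p = 4.09e-08) rose, and Osmr and Fga fell. With dexamethasone over myoglobin 3 rose and 1 fell. Pim3 rose from 245 ± 14.7 to 392.25 ± 40.5 counts (0.67 ± 0.087, adjusted p = 0.000286), Fga, the fibrinogen alpha chain, from 17 ± 5.60 to 39.25 ± 3.10 (1.21 ± 0.23) and Bcl6 by 0.28 ± 0.058. Pim1 fell by 0.26 (adjusted p = 0.0192). Icam1 and Tnfaip2 are also known to respond to NF-kB.

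Most tested genes of the acute-phase and C/EBP target list rose with myoglobin. Of 23, 17 rose, where 8.71% of all tested genes did. None fell by limma, nor did any have an unadjusted p below 0.05 in that direction. The median change was 0.89 against 0.00 for all tested genes. The list was chosen with earlier results of these data known, so nothing is read from these contrasts. Steap4, a metalloreductase, rose from 248.5 ± 25.6 to 1009 ± 37.3 counts (2.02 ± 0.067, adjusted p = 1.23e-11). Tnf rose by 1.34 ± 0.042 and the chemokine Cxcl2 by 1.71 ± 0.095. With both agents against vehicle 18 rose, with a median of 1.01. Dexamethasone over myoglobin called 2. Serpina3n, a secreted protease inhibitor, rose from 73.25 ± 15.3 to 232.25 ± 29.9 counts (1.67 ± 0.14, adjusted p = 3.25e-06), and the cytokine Csf2 fell from 105.5 ± 13.9 to 54.75 ± 8.22 (-0.94 ± 0.21, adjusted p = 0.0138). Without replicate 4 that comparison called 3 higher and 1 lower. The median for dexamethasone over myoglobin was 0.05.

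**Figure D5:**
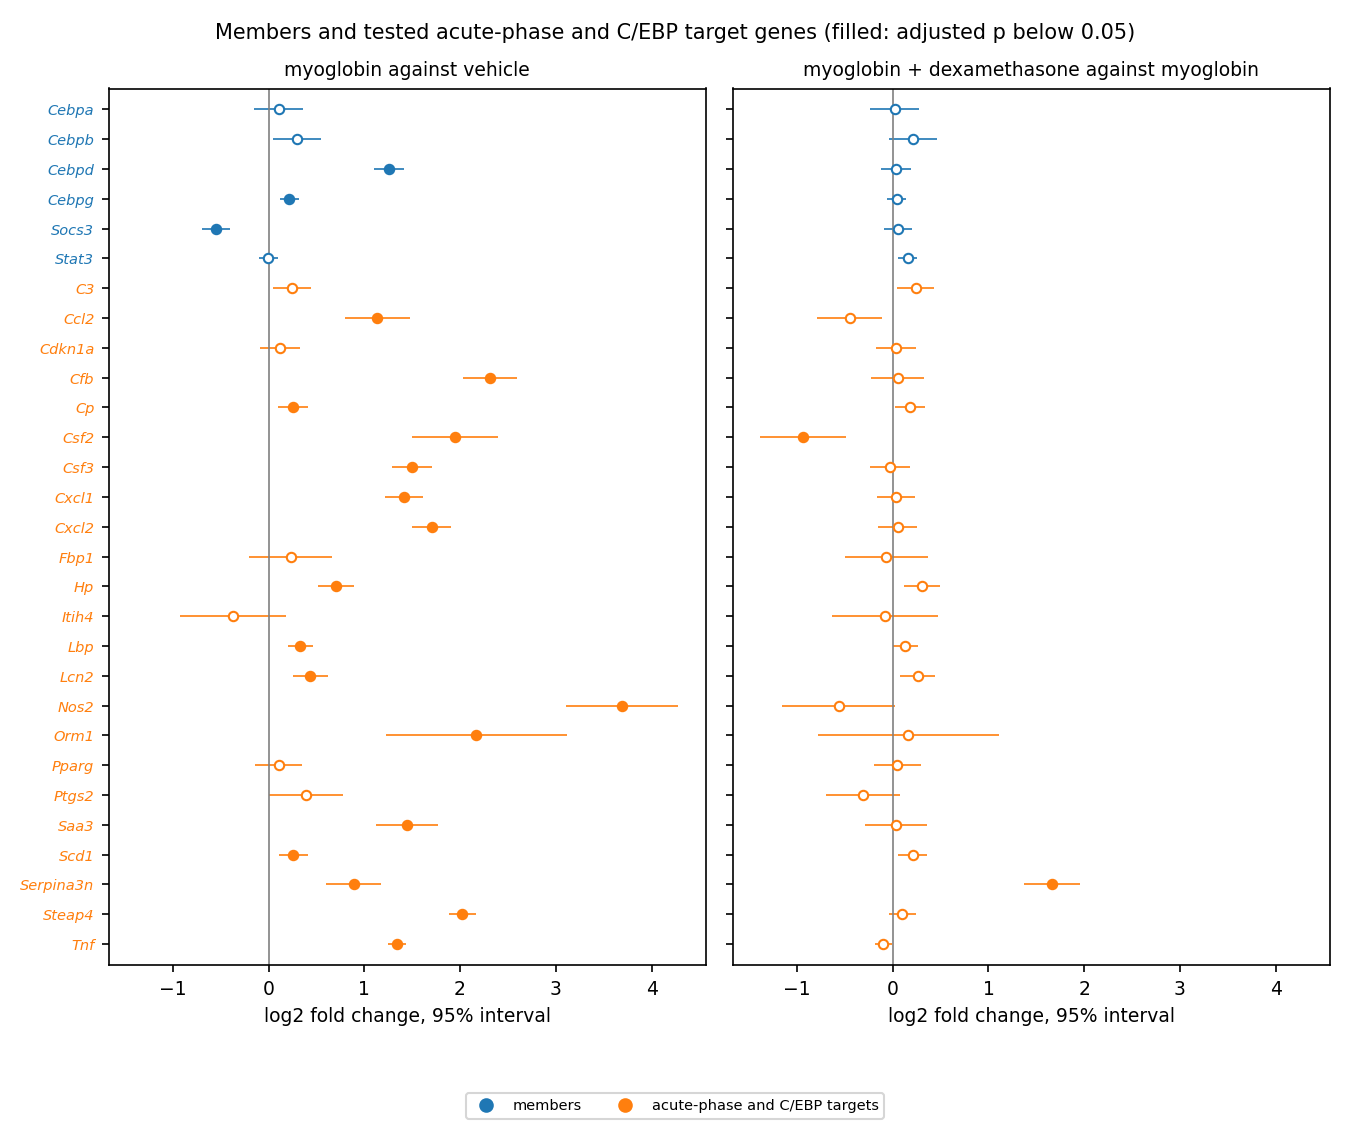
Log2 fold changes with 95% intervals (x axis) of the members and the tested acute-phase and C/EBP target genes (y axis), laid out as in the plot of the signalling genes. On the left 17 of the 23 targets are filled to the right of 0, and on the right Serpina3n (1.67) and Csf2 (-0.94) are filled.

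Markers of other cell types are given beside these lists. The summed value of 12 immune markers was 917 to 1083 with vehicle, 1008 to 1169 with myoglobin and 941 to 1168 with both, and 7 of the 12 were below the filter. Of the 5 tested, Cd14 rose with myoglobin (0.52 ± 0.099) and Ptprc, the pan-leukocyte marker, fell (-0.38 ± 0.063) and rose again with dexamethasone (0.31 ± 0.063). Fibroblast and stromal markers summed to 463 to 532, 324 to 408 and 209 to 313, with 2 of 8 tested genes lower with myoglobin (Rgs5 and Pdgfra) and 2 lower with dexamethasone over myoglobin (Rgs5 and Acta2). Without replicate 4 the last comparison called 0 of the 8 (adjusted p = 0.0545 for Rgs5 and 0.0584 for Acta2). With both agents against vehicle 5 of the 8 were called lower, where 14.6% of all tested genes were. Their list had a median change of -0.84 there, and 5 were also called lower without replicate 4. Endothelial markers summed to 125 to 135, 90 to 124 and 94 to 112, and podocyte markers to 666 to 991, 569 to 799 and 612 to 723. With myoglobin limma called no endothelial or podocyte marker, and 1 of each list had an unadjusted p below 0.05. With dexamethasone over myoglobin the podocyte list's Synpo rose. With both agents against vehicle 1 of 2 tested endothelial markers was called lower. Of 5 podocyte markers 2 were called lower and 1 higher there. Among all tested genes 14.6% were lower and 13.9% higher. Without replicate 4 the endothelial call ended, and the podocyte counts were the same. No marker of these lists that the deposited table holds was at 0 in all libraries, and Cd3e, Cx3cr1 and Fcgr1 of the immune list are not analysed here. The part of these cells in the members' changes was not tested.

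Genes listed as CHOP and ATF4 targets rose with myoglobin in 9 of 14 cases, and 1 fell. Of all tested genes 8.71% rose and 9.62% fell. This list too was chosen with earlier results of these data known, so nothing is read from its share. Binding of these genes by Cebpg was not measured. Stc2 (0.72 ± 0.051), the cystine transporter Slc7a11 (1.34 ± 0.10) and Chac1, which breaks down glutathione (1.81 ± 0.16), had the smallest p-values among those that rose, and Sesn2 fell (-0.17 ± 0.045). The median change of the list was 0.29. Dexamethasone over myoglobin lowered Stc2 (-0.38 ± 0.051, adjusted p = 0.000386) and raised Sesn2 (0.19 ± 0.045), and without replicate 4 it also lowered Shmt2 (adjusted p = 0.0342). In all, 8 of 14 were higher with both agents than with vehicle, where 13.9% of all tested genes were.

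The genes whose pattern over the 12 libraries lay nearest to each called member were found by the root-mean-square difference of log2 values, each taken relative to its vehicle mean. For Cebpd they were Lix1l (0.09 log2 units), Tnf (0.10) and Ltb (0.10). For Cebpb they were the ferritin chains Fth1 (0.10) and Ftl1 (0.11) and complement C3 (0.11). Cebpg lay nearest to Anxa7, Dpp3 and Eef1e1, all at 0.04. Stat3 lay nearest to Gde1 (0.02), Hdac1 and Laptm4b (both 0.03). Socs3 lay nearest to Flrt1, Dennd4b (both 0.07) and Edaradd (0.08). These distances include whatever the genes of a library share.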

How the data were processed

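RNA of 12 mouse tubuloid libraries was measured by bulk sequencing. Per the submitters' processing notes, DESeq2 1.36.0, featureCounts 2.0.3, Picard 2.27.4, STAR 2.7.10a and Trimmomatic 0.39 were used with build mm10, in roles that are not given. The deposited values are whole numbers read here as a normalised score: the authors' gene-level reads after division by a size factor and rounding, as the steps between a library's low values show. Factors read from these steps were 0.988 to 1.113 in the vehicle and myoglobin groups and 0.568 to 1.037 with both agents. The score is not a count, so no count test was run.

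A gene was tested if 4 or more libraries reached a value of 10. The test was limma-trend (limma 3.58.1 in R 4.3.3), run on log2 values after adding 1, with 3 group terms and all 12 libraries in 1 fit. P-values are two-sided. The script was tested on simulated data. Positions are those of the deposited table, of which 98.9% are identical in GENCODE M21, the source of exonic lengths. Promoter windows are from RefSeq (GRCm38.p6).

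The 6 members and the 20 gene lists were chosen with earlier results of these data known. Named from each list were up to 3 called genes per direction with the smallest p, or the 1 with the smallest p, and any C/EBP, STAT, SOCS or Janus kinase relative and interleukin-6 family gene. Alternatives were other pseudocounts, filters, scalings, fits and left-out libraries. List counts without replicate 4 were added after seeing the data. Precision rests on 4 libraries per group. Some genes of the lists and 1 sequence are not reported here, though the lists' counts and sums include those genes.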

Additional observations from a re-analysis of the deposited data

Results flagged for a closer look

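Cebpd in the myoglobin group was the 1 of 18 member-by-group sets in which a library stood apart from its companions. Replicate 3 had 338 counts against 356, 356 and 359, and its gap was 0.857 of the group's range, above Dixon's 95% critical value for 4 libraries. Chance gives such a value in about 1 of 20 sets. The group's SD was 9.60 counts, and the myoglobin rise of Cebpd was 1.21 to 1.32 log2 units when any library, or all libraries of a number, were left out.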

How the results depend on the processing

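In the comparisons with vehicle, the rise of Cebpd, the fall of Socs3 and the rise of Cebpb with both agents kept their calls under every alternative run. These were a pseudocount of 0.1 or 10, no filter on low values, library totals, upper-quartile scaling, quantile normalization, 2-group fits, a replicate block, library weights and left-out libraries. For dexamethasone over myoglobin, Cebpa was -0.007 with library totals and -0.065 with library weights, and Cebpd -0.029 with weights. Stat3 passed there with library totals (0.128) and weights (0.119), so 1 member was called. With both agents against vehicle Stat3 no longer passed with quantile normalization (0.049) or the 2-group fit (0.152). Cebpb passed with myoglobin in the 2-group fit (0.296) and with weights (0.286). Dexamethasone over myoglobin called 645 genes in the 2-group fit and 1625 with weights, against 1016, and myoglobin over vehicle 4314 with weights, against 2669. The causes were not tested.

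Labels do not say that equal numbers are pairs. Deviations of same-numbered libraries correlated above 0.1 in 9 of 12 pairs (median 0.16). Of differently numbered pairs 1 of 36 did (median -0.05). In 20 of 24 cases a library correlated best with its own number, a hint from the data and not the design. With the replicate block Cebpb (0.296) passed with myoglobin and Stat3 (0.156) for dexamethasone over myoglobin, which then called 1788 genes and 1 member. The block changed no other member's call.

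Leaving out a library, or all libraries of a number, gave these ranges. With myoglobin against vehicle Cebpb was 0.266 to 0.329, Cebpg 0.192 to 0.242 and Stat3 -0.017 to 0.018, and 1393 to 3789 genes were called. For dexamethasone over myoglobin Cebpa was -0.077 to 0.089, Cebpd -0.028 to 0.075, Stat3 0.092 to 0.192 and Socs3 -0.014 to 0.119, with 314 to 1279 genes and 0 to 1 members called. With both agents against vehicle Stat3 was 0.096 to 0.177, and 2404 to 4226 genes were called. The lowest counts came with all libraries numbered 2 or 3 left out, and so with fewer samples, and the highest without replicate 4 with both agents. Ratios cannot reach p below 0.05 with a library left out (smallest exact p 0.0571) or as sign flips within numbers (0.125). Depth limits the group with both agents most, through its library of 3.25 M reads.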
